A study of Canis lupus familiaris with 37 samples.

Results

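A set of 19 genes was transcribed in the canine T-cell line OSW and, at the depth of these libraries, almost nowhere else among the lymphoid samples profiled. Members were selected on their CPM, the count of a gene per 1000000 counts on genes in its library. A gene was a member if it had at least 5 CPM in all 4 OSW samples and less than 1 CPM in all 33 other samples. Its identifier also had to be absent from the study's lists of differentially expressed microRNAs and long non-coding RNAs (lncRNAs). Those lists hold only part of the annotated non-coding RNAs, so a member can still be non-coding. The CPM limits picked 23 of the 32704 genes in the files, and 4 lncRNAs among them were then left out. Because the CPM values of all 37 samples chose the members, the contrast between OSW and the rest is given as a description without a test.

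RNA sequencing of canine lymphomas, lymphoid cell lines and non-neoplastic lymph nodes was performed to see how closely the lines resemble the tumours. OSW is labelled as derived from a T-cell lymphoma. The other lines were CL-1 (2 samples), also labelled as T-cell derived, GL-1 (1 sample), labelled as B-cell derived, CLBL-1 (5 samples), from a diffuse large B-cell lymphoma, and CLBL-1M (5 samples), from a xenograft tumour of CLBL-1. All lines were grown in RPMI medium with fetal bovine serum and antibiotics. The 20 tissue samples were 12 primary B-cell lymphomas, 3 lymphomas of the intestine, 1 T-cell lymphoma and 4 control lymph nodes. The 4 OSW samples were replicates of 1 line, and no source states that they came from separate cultures, so their spread may be technical. For control replicate 4 the source field describes a line from a T-cell lymphoma, and the flow cytometry field of several tissue samples goes against their titles. The names CLBL-1 and CLBL-1M are exchanged between titles and files. Groups were taken from the titles, and values given for CLBL-1 and CLBL-1M separately would swap under the file names.

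Lymphocytes keep most genes of other tissues silent, through DNA methylation, repressive chromatin and the absence of the activating factors. Transcription of a gene outside the cell lineage in which it normally works is called ectopic expression, and tumour cells are known for it, with genes of the germ line as the best-known class. A cell line passes through clonal selection during long culture, so a gene that is active in 1 line and silent in related samples can have been active in the founding cell or have changed later. A count table of 1 line cannot tell these apart.

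The files name genes by Ensembl identifiers alone, and no table used here pairs these identifiers with symbols, so the members are given by identifier and their functions are not described. The T-cell label of OSW was not checked against T-cell markers for the same reason. Gene Ontology annotation in the study's functional enrichment results named 1 of the 19 members, ENSCAFG00000012488. Its terms included nuclear part, response to organic substance and regulation of developmental process, among other broad terms. Those results list genes the study called differentially expressed, under enriched terms, so they cover only part of the genes.

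Libraries held 1962722 to 4863730 gene counts, with a median of 2942360, and the 4 OSW libraries held 2810510 to 3152847. At these depths 5 CPM was 14.1 to 15.8 reads in an OSW library. The limit of 1 CPM allowed at most 1 read in the shallowest of the other libraries and at most 4 in the deepest. A count of 0 in a single library, read as fewer than 3 counts, left room for 0.617 to 1.53 CPM. "Only in OSW" therefore means below about 1 CPM elsewhere, not absent. In OSW, 68.0% to 71.3% of reads in the files were assigned to no gene, and 0.405% to 0.506% were ambiguous between genes.

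**Figure D1:**
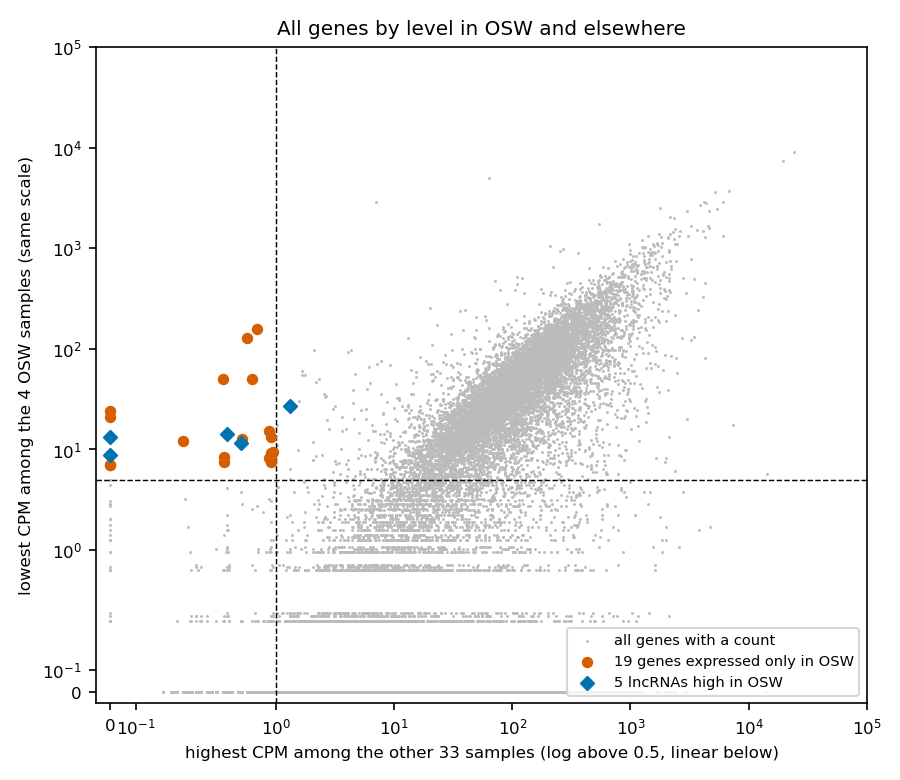
Each grey point is 1 gene with at least 1 count. The x axis is the highest CPM among the 33 other samples and the y axis the lowest CPM among the 4 OSW samples, both logarithmic above 0.5 and linear below; dashed lines mark 1 and 5 CPM. The 19 members (orange) fill the sparse upper left corner, and of 5 lncRNAs high in OSW (blue) 4 lie there too.

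The members differed widely in level within OSW. Their mean CPM over the 4 samples ran from 8.25 to 195, with a median of 17.3, while the 10234 genes that reached 5 CPM in every OSW sample had a median of 47.2. Mean CPM was at least 50 for 4 members, between 20 and 50 for 3, between 10 and 20 for 10 and under 10 for 2. CPM is not divided by gene length, so this order is one of read share and not of transcript number. Summed over the 19 genes the level was 731, 653, 722 and 846 CPM in OSW replicates 1 to 4, and the 3 genes with the most reads held 57.6% of it.

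ENSCAFG00000010351 had the highest share of reads, with 159, 169.7, 175 and 276 CPM in OSW replicates 1, 2, 3 and 4 (mean 195 ± 54.6, SD, n = 4). Replicate 4 stood above the other 3, which were close together. Outside OSW the gene had 11 reads, all in cell lines and none in the 20 tissue samples, and its highest value was 0.687 CPM in CL-1 replicate 1.

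ENSCAFG00000019623 had 193, 128, 169.6 and 145 CPM in the same order (159 ± 28.1, SD, n = 4). It was the member with reads in the most other libraries: 11 reads spread over 10 of them, 4 in lines and 7 in tissue. None of these libraries passed 0.560 CPM, which was the value of B-cell lymphoma replicate 10, and the pooled level was 1405 times higher in OSW than in the 33 other samples.

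ENSCAFG00000010099 had 59.7, 50.2, 52.6 and 123 CPM (71.4 ± 34.7, SD, n = 4). As for ENSCAFG00000010351, replicate 4 was the high sample, at 2.45 times the lowest. ENSCAFG00000012488, the gene with the annotation given above, had 87.9, 50.5, 86.8 and 58.0 CPM (70.8 ± 19.4, SD, n = 4), with replicates 1 and 3 above replicates 2 and 4. Its single read elsewhere, in CLBL-1 replicate 3, gave a pooled ratio of 6890, the largest among the 15 members with a read elsewhere. The 95% exact binomial interval of this ratio was 1233 to 272464. Such intervals cover counting error only.

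Between 20 and 50 CPM lay ENSCAFG00000013603, ENSCAFG00000008653 and ENSCAFG00000001571. ENSCAFG00000013603 had 24.8, 41.6, 24.1 and 41.9 CPM, and ENSCAFG00000008653 had 28.9, 22.8, 30.9 and 20.9 CPM. The former was higher in replicates 2 and 4 and the latter in replicates 1 and 3, so the members did not share 1 order of the samples. ENSCAFG00000001571 had 19.7, 22.8, 15.3 and 27.6 CPM.

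The 10 members between 10 and 20 CPM were ENSCAFG00000014440, ENSCAFG00000031946, ENSCAFG00000017405, ENSCAFG00000000265, ENSCAFG00000023521, ENSCAFG00000030195, ENSCAFG00000035223, ENSCAFG00000029685, ENSCAFG00000029100 and ENSCAFG00000003332. ENSCAFG00000014440 varied most of all members, with 31.4, 7.47, 30.9 and 8.25 CPM in OSW replicates 1 to 4, a ratio of 4.20 between the highest and the lowest. ENSCAFG00000031946 was high in replicate 2 alone, at 32.7 CPM, against 12.7, 13.2 and 16.8 CPM in replicates 1, 3 and 4. These 2 genes had no sample pattern in common. ENSCAFG00000017405 had 15.9, 15.7, 13.2 and 24.4 CPM. ENSCAFG00000003332 varied least, from 9.52 to 12.5 CPM. Under 10 CPM were ENSCAFG00000002881, with 8.25, 10.3, 7.46 and 6.98 CPM, and ENSCAFG00000034255, with 11.7, 7.47, 10.2 and 8.25 CPM.

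**Figure D2:**
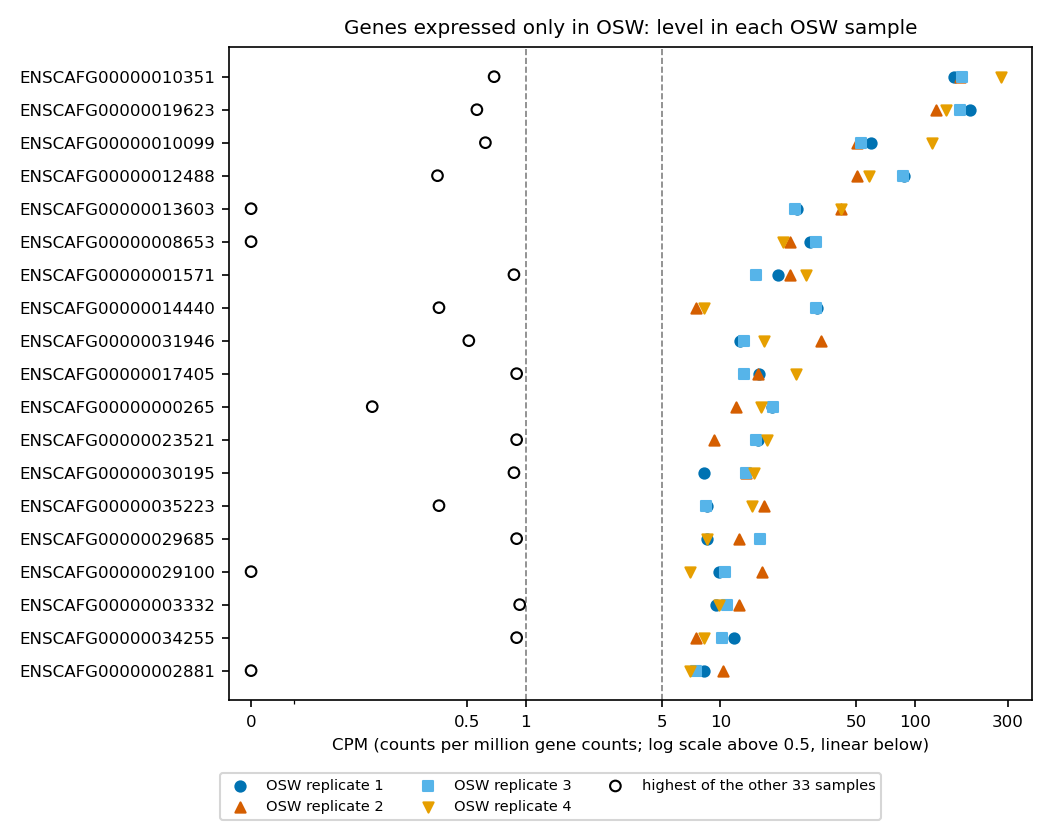
CPM of each of the 19 genes (rows) in OSW replicates 1 to 4 (filled symbols) and in the highest of the 33 other samples (open circles), on an axis that is logarithmic above 0.5 and linear below; dashed lines mark the 2 limits of the rule. The filled symbols run from 6.98 to 276 CPM, the open circles from 0 to 0.930 CPM.

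Values near the limits show how sharp the boundary was. Nearest above the lower limit were ENSCAFG00000002881 and ENSCAFG00000029100, each with 6.98 CPM in its lowest OSW sample, then ENSCAFG00000014440 and ENSCAFG00000034255 with 7.47 CPM and ENSCAFG00000030195 with 8.25 CPM. Just outside were ENSCAFG00000018980 and ENSCAFG00000039664, each with 4.98 CPM in its lowest OSW sample and no read in any other sample, followed by ENSCAFG00000036015 (4.44 CPM), ENSCAFG00000017681 (4.13 CPM) and ENSCAFG00000000910 (3.81 CPM). Nearest below the upper limit was ENSCAFG00000003332, with 0.930 CPM (3 reads) in CL-1 replicate 2, and ENSCAFG00000017405, ENSCAFG00000023521, ENSCAFG00000029685 and ENSCAFG00000034255 each had 0.897 CPM (2 reads) in intestinal lymphoma replicate 3. ENSCAFG00000017734 and ENSCAFG00000028730 missed it with 1.02 CPM in control replicate 2, which was 2 reads, while their lowest OSW values were 17.5 and 11.1 CPM. Next came ENSCAFG00000023202 (1.30 CPM in control replicate 4), ENSCAFG00000019945 (1.32 CPM in control replicate 3) and ENSCAFG00000015412 (1.35 CPM in intestinal lymphoma replicate 3). Membership at the upper limit thus turned on a few reads in a single library.

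Outside OSW the 19 members together had 69 reads among 96870298 gene counts, 32 in lines and 37 in tissue, against 8935 reads among 12062641 gene counts in OSW. No other library held more than 3 reads of any member. Of the 19 members, 15 had at least 1 read elsewhere, and 11 of these had 1 to 5. ENSCAFG00000003332, ENSCAFG00000010351, ENSCAFG00000019623 and ENSCAFG00000029685 held 41 of the 69 reads. ENSCAFG00000029685 had the lowest pooled ratio of OSW to the rest, 99.3, with a 95% exact binomial interval of 53.8 to 204.

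No read in any of the 33 other libraries was counted for 4 members, ENSCAFG00000002881, ENSCAFG00000008653, ENSCAFG00000013603 and ENSCAFG00000029100. Set against a floor of 3 reads over those libraries pooled, which was 0.0310 CPM, they were at least 265-fold, 835-fold, 1065-fold and 348-fold higher in OSW. These bounds follow the OSW level of each gene, since the floor is the same.

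The few reads elsewhere were not spread evenly. Intestinal lymphoma replicate 3 held 11 reads from 6 members (4.94 CPM summed), and the other 2 intestinal lymphomas held none. Control replicate 4, the sample with the conflicting source name, held 9 reads from 6 members (3.91 CPM). Its summed level was far below the 653 to 846 CPM of the OSW libraries. The median over the 33 libraries was 0.392 CPM, and 10 had no read of any member. In control replicate 4, 0.476% of reads were ambiguous between genes, against 0.129% to 0.143% in the other controls. This share was 0.0977% to 0.229% in the lymphomas and 0.363% to 0.549% in the line samples. Control replicate 4 had 12931 genes at 5 CPM, against 12145 to 12342 in the other controls and 10030 to 11165 in the line samples. Which label of this sample is right was not tested.

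Reads of the 19 members were summed and pooled over the samples of each group. Among the lines, this pooled level was 2.28 CPM in CL-1 (95% exact Poisson interval 1.25 to 3.83), the other line labelled as T-cell derived. It was 2.10 CPM in GL-1 (0.771 to 4.58). It was 0.368 CPM in CLBL-1 (0.119 to 0.859) and 0.466 CPM in CLBL-1M (0.187 to 0.960). The rule held every member below 1 CPM in each of these samples, so nothing about the T-cell and B-cell labels is read from these levels. In tissue, the single T-cell lymphoma had 0.860 CPM (0.177 to 2.51) and the B-cell lymphomas 0.264 CPM (0.127 to 0.485). The controls had 1.37 CPM (0.729 to 2.34) and the intestinal lymphomas 1.31 CPM (0.655 to 2.35). All 11 intestinal reads came from replicate 3, and 9 of the 13 control reads from control replicate 4. The intervals cover counting error only and not this spread between samples. In bulk tissue, fewer cells with a transcript and less transcript per cell cannot be told apart. The part of stray reads between libraries in these values was not tested.

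**Figure D3:**
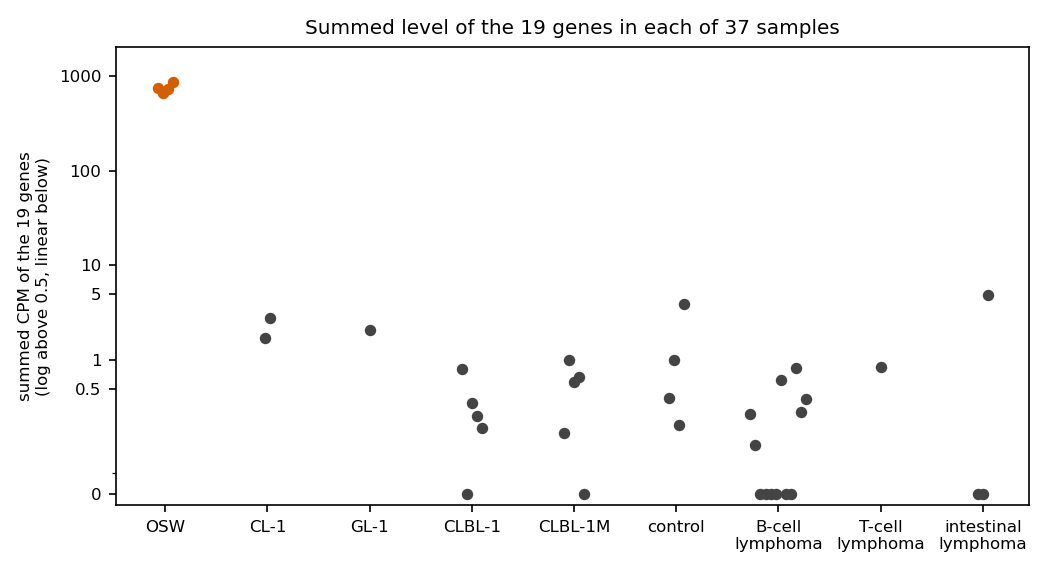
Summed CPM of the 19 genes in each of the 37 samples, by group, on an axis that is logarithmic above 0.5 and linear below; each point is 1 sample. The 4 OSW samples lie at 653 to 846 CPM and every other sample at or below 4.94 CPM, by the choice of the members.

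The spread among the OSW samples was not used by the rule beyond the lower limit, and it was wider for the members than for most genes. The highest OSW sample exceeded the lowest by a median factor of 1.81 over the members, from 1.31 to 4.20, against a median of 1.44 over the 10234 genes at 5 CPM in all OSW samples. Members with a factor of at least 2 numbered 4 (ENSCAFG00000010099, ENSCAFG00000014440, ENSCAFG00000029100 and ENSCAFG00000031946), and 9.39% of those 10234 genes reached that factor. Among the 8851 genes within the members' range of mean level, 10.2% reached it, with a median factor of 1.44. The 10234 genes had a higher median level than the members, as given above, and low counts widen the factor by counting error alone.

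Set against counting error, 13 of the 19 members differed between OSW libraries by more than Poisson sampling allows at the 95% limit (chi-square per degree of freedom above 2.60), as did 59.0% of the 10234 genes. The value was 51.4 for ENSCAFG00000010099 and 47.4 for ENSCAFG00000010351, both high in replicate 4. Over all genes other than the members, replicates 2 and 4 were the closest pair (4.16 per degree of freedom), followed by replicates 1 and 3 (5.17), and replicates 1 and 2 were the most distant (13.01). No pair differed by less than sampling noise, so none was treated as 1 library. Replicates 1 and 3 were the 2 highest samples for 6 members, as for 27.9% of the 10234 genes, and replicates 2 and 4 for 4 members, as for 22%. ENSCAFG00000014440 and ENSCAFG00000012488 were of the first kind and ENSCAFG00000013603 of the second. No source gives a culture or batch that would match these pairs.

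**Figure D4:**
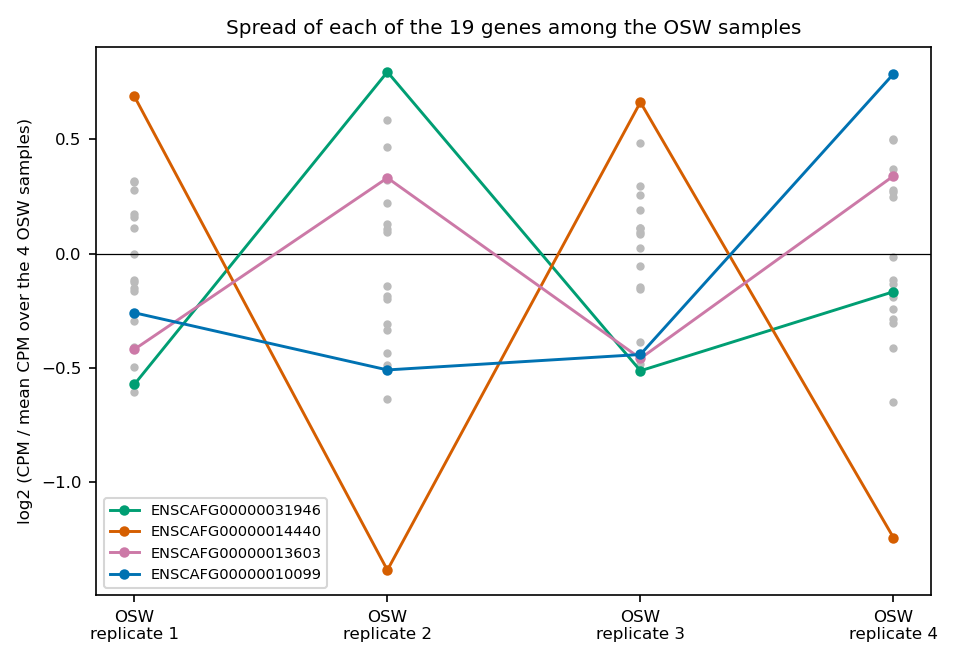
The log2 ratio of each gene's CPM to its mean over the 4 OSW samples, by replicate; each point is 1 of the 19 genes and 4 genes are joined by lines. ENSCAFG00000014440 swings between replicates 1 and 3 and replicates 2 and 4, ENSCAFG00000013603 swings the other way, ENSCAFG00000010099 is high in replicate 4 and ENSCAFG00000031946 in replicate 2.

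Neighbouring identifiers were examined because genes numbered one after the other in an Ensembl annotation often lie near each other in the genome. Positions were not used here, and rows of the sorted identifiers stand in for them. The members formed no run. The nearest pair, ENSCAFG00000010099 and ENSCAFG00000010351, was 209 rows apart, the median gap was 1091 rows and the largest 4107. No member had another within 10 rows, and none had one of the 4 lncRNAs within 5 rows. With these lncRNAs added to the set, the smallest gap was 42 rows. The block of identifiers from the first listed lncRNA upward, which holds 24.7% of the identifiers in the files but only 1.25% of the 10234 genes, held 2 members, ENSCAFG00000034255 and ENSCAFG00000035223.

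The 190 other genes within 5 rows of a member were, for the most part, ordinary. Of these, 76 (40%) had at least 5 CPM in all OSW samples, against 31.3% of all genes in the files. In 4 of the 190 the lowest OSW sample exceeded every other sample, against 1.75% of all genes. Both backgrounds include the block of identifiers from the first listed lncRNA upward. It holds 24.7% of the identifiers but 1.25% of the genes at 5 CPM in all OSW samples, and only 2 members lay in it. The neighbours and all genes are therefore not alike in this respect, and no excess is read from these shares. Directly beside the members lay 38 genes, of which 17 had at least 5 CPM in all OSW samples and 14 had no read in OSW. For 9 members neither adjacent gene reached 5 CPM in all OSW samples. The share of all genes with such neighbours was not computed, so nothing about the members is read from this count.

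In the edgeR quasi-likelihood fit over all 37 samples, 103 of the 190 neighbours could be tested, and a gene was called at a Benjamini-Hochberg adjusted p of at most 1e-05. Against the mean of the 4 other lines, each line given equal weight, 7 neighbours were called higher in OSW and 0 lower, where 5.25% of all 15162 genes were called higher and 1.48% lower. Without GL-1, a line with 1 sample, 12 neighbours (11.7%) and 8.32% of all genes were called higher. Against the 4 controls, 6 were called higher and 2 lower, with 5.61% and 6.72% of all genes. The DESeq2 Wald test called 7 higher and 9 lower there, with 7.66% and 13.9% of all genes. The median log2 fold change of the neighbours was 0.12 against the lines, beside 0.00 over all genes, and 0.06 against the controls, beside -0.08. The share called higher was near the background in both comparisons. The share called lower was below it, at 0% against the lines and 1.94% against the controls. Of the members themselves, 8 of 19 were called against the lines and 6 of 19 against the controls, all higher in OSW, beside 6.73% and 12.3% of all genes in either direction. The rule used these same samples, so nothing is read from these counts.

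**Figure D5:**
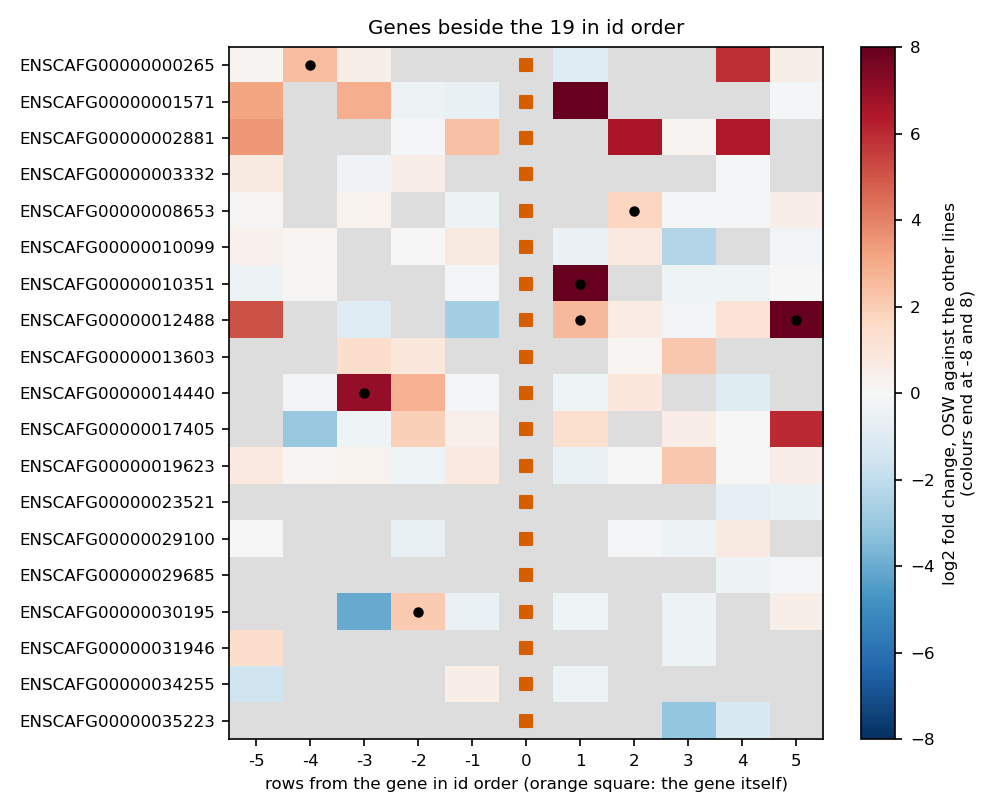
Log2 fold change of OSW against the other lines for the 5 genes on either side of each member in identifier order; rows are the 19 members, and colour runs from blue (lower in OSW) to red (higher). Grey cells were not tested and black dots mark the 7 genes called at an adjusted p of at most 1e-05. No row is red throughout.

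The 7 neighbours called higher against the lines were ENSCAFG00000000260, ENSCAFG00000008656, ENSCAFG00000010352, ENSCAFG00000012489, ENSCAFG00000012496, ENSCAFG00000014435 and ENSCAFG00000030193. The largest difference was that of ENSCAFG00000010352, the next identifier after ENSCAFG00000010351, with 509, 633, 619.7 and 682 CPM in OSW replicates 1 to 4. It was 120.2 CPM in GL-1, 0.310 and 0.344 CPM in CL-1, 0 to 0.745 CPM in CLBL-1 and 0 in CLBL-1M. Its log2 fold change against the lines was 9.47 ± 0.719 (SE; edgeR adjusted p = 2.29e-11). In contrast to its neighbour it was also found in tissue, at 2.97 to 16.5 CPM in the controls and 2.55 to 7.59 CPM in the intestinal lymphomas. The member with the most reads thus lay beside a gene that was also higher in OSW than in every other sample, while GL-1 had the second gene and less than 1 CPM of the first.

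The member ENSCAFG00000012488 had 2 called genes within 5 rows. ENSCAFG00000012489, the next identifier, had 65.8 to 97.4 CPM in OSW, 33.3 to 63.2 CPM in the controls and 44.7 CPM in the T-cell lymphoma, and its log2 fold change against the lines was 2.57 ± 0.359 (SE; edgeR adjusted p = 8.40e-07). ENSCAFG00000012496 had 63.8 to 72.6 CPM in OSW and at most 3.15 CPM in another line, with 0.255 to 59.7 CPM in the intestinal lymphomas. Its log2 fold change was 8.59 ± 1.13 (SE; edgeR adjusted p = 6.67e-07). In other tissue ENSCAFG00000012496 was low, at 0.509 to 3.04 CPM in the controls, 0 to 3.13 CPM in the B-cell lymphomas and 8.31 CPM in the T-cell lymphoma. The value of 59.7 CPM came from intestinal lymphoma replicate 3 alone. ENSCAFG00000012489 was therefore present in all groups of lymphoid tissue, and ENSCAFG00000012496 mainly in single tissue samples, unlike the member.

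ENSCAFG00000014435, 3 rows before ENSCAFG00000014440, had 61.2, 85.04, 69.9 and 72.6 CPM in OSW replicates 1 to 4 and did not follow the 4.20-fold swing of that member. It reached 41.0 CPM in GL-1, at most 0.344 CPM in the remaining lines and 70.8 to 221 CPM in the controls (log2 fold change against the lines 7.03 ± 0.835, SE; edgeR adjusted p = 4.93e-08). ENSCAFG00000030193, 2 rows before ENSCAFG00000030195, had 35.2, 90.02, 42.7 and 86.9 CPM in OSW, but 69.2 to 412 CPM in the intestinal lymphomas. The other called genes, ENSCAFG00000000260 and ENSCAFG00000008656, were expressed in every sample, with log2 fold changes of 2.44 ± 0.242 and 1.74 ± 0.165 (SE).

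ENSCAFG00000001572, the next identifier after ENSCAFG00000001571, was not called but was singled out after its values were seen. It had 6.35, 16.4, 8.14 and 13.3 CPM in OSW replicates 1 to 4 and no read in the 13 samples of the other lines (edgeR adjusted p = 4.74e-05, above the limit). The single T-cell lymphoma had 14.0 CPM, the B-cell lymphomas at most 0.782 CPM and the controls 0.509 to 1.98 CPM. Its neighbour, the member, had no read in that T-cell lymphoma. Both had their highest values in OSW replicates 2 and 4. Where 2 adjacent genes overlap or lie on opposite strands, reads of one can be counted for the other, and the strand setting of the counting is not given in the sources used here.

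To place the members among the genes that set OSW apart, the rule was relaxed on either side. In OSW, 210 genes had at least 5 CPM in all samples and less than 1 CPM in every sample of the other lines, and 187 of them reached 1 CPM in some tissue sample. Of the 210, 162 reached 1 CPM in at least 1 control lymph node and 108 in all 4. Most of the 210 were thus seen in lymphoid tissue, but so were nearly all genes transcribed in OSW. Of the 10234 genes at 5 CPM in all OSW samples, all but 32 reached 1 CPM in some tissue sample. The share seen in tissue was therefore smaller among the 210 than among the 10234. Conversely, 32 genes had at least 5 CPM in all OSW samples and less than 1 CPM in all 20 tissue samples, and 9 of these were seen at 1 CPM or more in another line, 6 of them in CL-1, 3 in GL-1, 1 in CLBL-1 and 1 in CLBL-1M. The 23 genes seen in neither are the members and the 4 lncRNAs, 0.225% of the 10234 genes. In the opposite direction, 5 genes had less than 1 CPM in all OSW samples and at least 5 CPM in all 33 others.

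The 4 lncRNAs left out were ENSCAFG00000033802, ENSCAFG00000035265, ENSCAFG00000038320 and ENSCAFG00000038492. Another lncRNA, ENSCAFG00000040754, had 27.1 to 32.4 CPM in OSW but 1.30 CPM in control replicate 4, which was 3 reads, and so missed the upper limit.

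OSW was not the only line with genes of its own. The same rule gave 24 genes for CL-1 (2 samples), 36 for GL-1 (1 sample), 0 for CLBL-1 and CLBL-1M pooled (10 samples), 7 for the controls (4 samples), 25 for the T-cell lymphoma (1 sample), and 0 each for the B-cell lymphomas (12 samples) and the intestinal lymphomas (3 samples). The count can only fall as more samples of a group must pass the lower limit. It can only rise as fewer samples outside the group must stay under the upper limit. The samples outside numbered 25 for the B-cell lymphomas, 27 for CLBL-1 and CLBL-1M, and 33 to 36 for the other groups. These groups therefore cannot be ranked. When each sample was taken alone against the samples outside its group, OSW samples gave 28 to 31 genes, CL-1 26 and 27, GL-1 36, CLBL-1 and CLBL-1M 1 to 5, the controls 14 to 48, the intestinal lymphomas 12 to 28 and the B-cell lymphomas 0 to 18. The OSW values lay within the range of the controls and below that of GL-1. A private set of this size was therefore not particular to OSW.

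Whether OSW transcribed more genes in general was compared over line samples with the members left out, by an exact two-sided permutation test for each of 3 measures. OSW samples had 10807 ± 83.1 genes at 5 CPM or more (SD, n = 4), and the other lines 10262 ± 341 (SD, n = 13), a difference of 545 (exact permutation p = 0.0160, Benjamini-Hochberg adjusted p = 0.0479). All 4 OSW samples, at 10717 to 10910 genes, were above the 12 samples of CL-1, CLBL-1 and CLBL-1M, and below GL-1 with 11165. CL-1 had 10629 and 10640 genes and the CLBL-1 and CLBL-1M samples 10030 to 10198, and these 10 samples set the mean of the other lines. Samples of 1 line are not independent lines, so the p-value compares these samples and not lines. The call was lost when any of the 4 OSW samples was left out (adjusted exact permutation p from 0.107 to 0.118) or any of the 10 from CLBL-1 or CLBL-1M (adjusted exact permutation p = 0.0626). The control lymph nodes had 12145 to 12931 such genes.

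Counted at a common depth of 1962722 reads, OSW had 15189 ± 138 genes with a read (SD, n = 4) and the other lines 14580 ± 594 (SD, n = 13), a difference of 609 (exact permutation p = 0.109, adjusted p = 0.164) that did not pass the test. The share of gene counts on the identifiers from the first listed lncRNA upward was 0.709% in OSW and 0.685% in the other lines (exact permutation p = 0.650, adjusted p = 0.650). Of the 3 measures, the number of genes at 5 CPM alone passed the adjusted threshold in these samples, and it did so only with all 17 samples or with CL-1 or GL-1 samples left out.

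On ectopic expression, these values show transcription of 19 genes in all 4 OSW samples that was not detectable, or was at most 3 reads a library, in 4 lymph nodes, 16 lymphomas and 4 other lymphoid lines. Whether these genes are normally active in another tissue cannot be read from lymphoid samples alone, and non-lymphoid tissue was not analysed here.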

How the data were processed

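RNA of 37 canine samples was sequenced on Illumina instruments. The authors aligned reads to CanFam3.1 with BWA and counted them per Ensembl 85 gene with HTSeq 0.6.1, and the deposited values are raw read counts per gene in each sample. The strand setting is not given in the sources used here. CPM was computed on the sum of the gene rows; rows of unassigned reads stayed out of it. The members and lists were chosen with earlier results of these data known. Every member is named, with each OSW value for the 10 with the highest means, and the 5 genes nearest to each limit on either side are given. Neighbours were named if called against the lines, a choice made after their values were seen.

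Differences across genes were tested with edgeR 4.0.16 (quasi-likelihood, TMM scaling, 1 model over all 37 samples with 8 groups, R 4.3.3) on the 15162 genes whose highest CPM was above the 40th percentile, at a Benjamini-Hochberg adjusted p of at most 1e-05; DESeq2 1.42.0 was an alternative. As in the study, the T-cell lymphoma and the intestinal lymphomas formed 1 group in this fit. The exchange of the names CLBL-1 and CLBL-1M moves no sample into or out of the comparisons here, but it would swap the values given for each. The fit was also run on simulated data in which every group had the mean levels of the controls. In OSW, 200 genes among 14967 were changed by a log2 fold of 3, all drawn from genes well expressed in the controls. The fit recovered 70.5% of them against the controls and 73% against the lines, with 0 false calls. Its power for genes near 0 reads, and under the real differences between groups, was not tested. Ratios have exact binomial intervals on the pooled counts, and pooled levels of a group have exact Poisson intervals. Both kinds cover counting error only. Single measures were compared by exact permutation over samples (scipy 1.17.1). Deviations of OSW and control samples with the same replicate number correlated at -0.06 to 0.08, those with different numbers at -0.16 to 0.16. No pairing by number was thus seen between OSW and control samples, and other groups were not checked. Symbol lists, markers, promoters and proteins were not used here, since the identifiers could not be matched to the reference table (assembly UU_Cfam_GSD_1.0).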

Additional observations from a re-analysis of the deposited data

Results flagged for a closer look

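Of 31 groups of values looked at, 4 had 1 sample far from the others, and chance alone marks about 1 group in 20. Among the 19 members these were ENSCAFG00000010099, with 123 CPM in OSW replicate 4 against at most 59.7 CPM in the other 3, and ENSCAFG00000010351, with 276 CPM in OSW replicate 4 against at most 175 CPM. The number of genes with a read at the common depth was 19322 in control replicate 4, the highest of the controls. The number of genes at 5 CPM was 10198 in CLBL-1M replicate 3, the highest of that line.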

How the results depend on the processing

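The number of members depended on the limits: it was 10 with a lower limit of 10 CPM, 38 with 2 CPM, 8 with an upper limit of 0.5 CPM and 29 with 2 CPM. It was 19 to 23 without each OSW or control replicate and, chosen after seeing the data, 28 without intestinal lymphoma replicate 3. No limit tried put 2 members within 5 rows. Genes called against the controls (1869) became 8619 at an adjusted p of 0.05, 3263 with DESeq2 and 1216 to 1576 with 1 replicate left out; DESeq2 size factors in edgeR gave 627 higher and 1159 lower, where TMM gave 850 and 1019. Genes called against the lines (1020) became 5171 at 0.05, 2443 with only the groups compared, 1575 without GL-1, 1805 with DESeq2 and 732 to 813 without 1 OSW replicate. The 7 neighbours called higher (6.80%, beside 5.25% of all genes) became 27 at 0.05 (26.2%, beside 21.8%), 14 with only the groups compared (13.6%, beside 12.7%), 12 without GL-1 (11.7%, beside 8.32%), 12 with DESeq2 (11.7%, beside 8.83%) and 5 to 7 with CL-1 or 1 OSW replicate left out. With the replicate number as a block, 1304 genes were called against the controls and 662 against the lines. Of the neighbours, 4 were then called higher against the lines (3.88%, beside 3.42% of all genes). Whether equal numbers mark a shared origin was checked for OSW and control samples only. The cause of these shifts was not tested. The difference in genes at 5 CPM, with settings chosen after seeing the data, was 510 to 575 without 1 OSW replicate and 525.6 to 539.6 without 1 CLBL-1 or CLBL-1M replicate, where its adjusted exact permutation p was 0.0626 to 0.118 and the call was lost. It was 576 without CL-1 replicate 1, 620 without GL-1 and 709.8 without both lines (adjusted exact permutation p from 0.00300 to 0.0363). A comparison of promoters was not run for lack of sequence. Depth limits any statement below about 1 CPM.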
